A study of Homo sapiens with 2 samples.

Results

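The data describe 34 protein-coding genes of DNA repair in 2 RNA sequencing libraries of the human cell line that the labels name SH-SY5Y, a neuroblastoma line. The genes were listed by name as members of the repair pathways, with no threshold on their values, and all 34 were found in the deposited table of 58735 genes, of which 19951 are protein-coding. That list was drawn up with earlier results of these data known. One library came from cells exposed for 24 h to TDCPP, the flame retardant tris(1,3-dichloro-2-propyl) phosphate, together with titanium dioxide nanoparticles (TiO2 NPs), and 1 from control cells labelled Ctrl. Both groups were grown in serum-supplemented DMEM, and neither a dose nor a vehicle is named in the labels. There was 1 library on each side, so no difference has a replicate check and no test between the conditions was possible. Neither agent was sequenced alone here, so nothing below separates TDCPP from the nanoparticles.

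Cells repair DNA by several routes that share few parts. A break through both strands is either rejoined end to end by non-homologous end joining, which works throughout the cell cycle, or copied from the sister chromatid by homologous recombination, which needs a replicated chromosome and is therefore tied to S and G2 phase. The Fanconi anaemia proteins open cross-linked DNA, base excision repair removes damaged bases and seals the gaps that follow, mismatch repair corrects errors of replication, and nucleotide excision repair cuts out bulky adducts. The kinases ATM and ATR report damage to the checkpoint kinases CHEK2 and CHEK1.

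Levels are the deposited FPKM, in which a gene's fragments are divided by its length in kilobases and by a total per library. The whole reads behind them were recovered, 15315572 in the exposed library and 16471438 in the control library, and each of the 34 genes had between 209 and 23302 reads in a library. The totals used in the FPKM were not these sums, but 1.577e+07 for the exposed and 1.600e+07 for the control library. Every ratio on the deposited scaling is therefore lower than it would be with scaling to total reads. Read ratios are exposed over control on the authors' scaling, with exact binomial 95% intervals in brackets that cover counting error only, treat reads as independent molecules and compare these 2 libraries, not the conditions. Log2 ratios were taken after 1 was added to each FPKM, so they are smaller than the true ratio where levels are low. Gene coordinates are those of GENCODE 29 on GRCh38. A protein-coding gene counted as measured when its FPKM averaged at least 1 over both libraries, which held for 11409 genes and for all 34 repair genes. The label was checked against 7 markers of noradrenergic neuroblastoma. PHOX2A and TH had 0 reads in each library, and DBH had 3 in the exposed and 10 in the control library. HAND2, GATA3 and ISL1, 3 of the 7, reached the measured range, at 0.916, 4.69 and 1.25 FPKM in the exposed library and 1.13, 5.82 and 2.15 FPKM in the control library. The defining markers were thus at or near 0, the 3 measured ones summed to 6.86 FPKM in exposed and 9.10 FPKM in control cells, and the cells are called by their label only.

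Repair genes as a whole differed little between the libraries, while the 9 recombination and 5 end joining genes listed lay mostly on opposite sides of 0. None of the 34 was 1.5-fold higher or 1.5-fold lower in log2 ratio, against 2.53% of all measured genes higher and 2.16% lower by that rule, and none reached 2-fold, against 0.657% higher and 0.131% lower. Scaling the FPKM to equal sums moved the median of all measured genes by 0.11 and their split at 1.5-fold to 3.82% higher and 1.06% lower, with 0 repair genes still past it in each direction. At 1.2-fold, a threshold added after the values were seen, 4 of 34 (11.8%) were higher and 5 (14.7%) lower, against 12.0% and 19.3% of all measured genes. On the deposited scaling the counting interval lay above 1 for 8 of 34 (23.5%) and below 1 for 12 (35.3%), against 21.5% and 36.0%. Intervals were taken on that scaling only, so one with a bound near 1 could fall otherwise under another scaling. The median log2 ratio was -0.04 for the 34 genes and -0.05 for all measured genes. These shares are near those of the transcriptome, so the set as a whole did not stand out from it.

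Among the 34 listed genes, recombination and end joining stood furthest apart of the pathways. Of 9 homologous recombination genes 8 had a log2 ratio above 0, with a median of 0.16, whereas all 5 end joining genes lay below 0, with a median of -0.37. Most measured genes also lay below 0 on the deposited scaling, with a median of -0.05, whereas with scaling to total reads their median was 0.02. Against the median of -0.05, 8 recombination genes lay above and 1 below, and all 5 end joining genes lay below. The 2 splits at 0 were the same under 7 other choices of pseudocount or scaling. They hold for the listed genes, which were chosen with earlier results of these data known. On the deposited scaling, of 26 further recombination genes 7 lay above 0 and 19 below, and 8 further end joining genes stood 4 on each side. On the deposited scaling the 3 Fanconi genes lay below 0 with a median of -0.15, and the 8 base excision and single-strand break genes stood 4 on each side with a median of -0.01. With FPKM scaled to equal sums, 1 Fanconi gene lay above 0 and 2 below, with a median of -0.031, and 7 base excision genes lay above 0 and 1 below, with a median of 0.10. Mismatch repair, nucleotide excision repair and the kinases had genes on both sides of 0. The plot of read ratios shows the values gene by gene. Under those choices 28 of the 34 genes kept the side of 0 they had on the deposited scaling. The signs of FANCI, LIG1, LIG3, APEX1, MSH3 and ATM changed under at least 1 scaling, so their values are given without a direction. In bulk RNA a change in the mix of cells or cell cycle stages and a change in RNA per cell cannot be told apart.

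**Figure D1:**
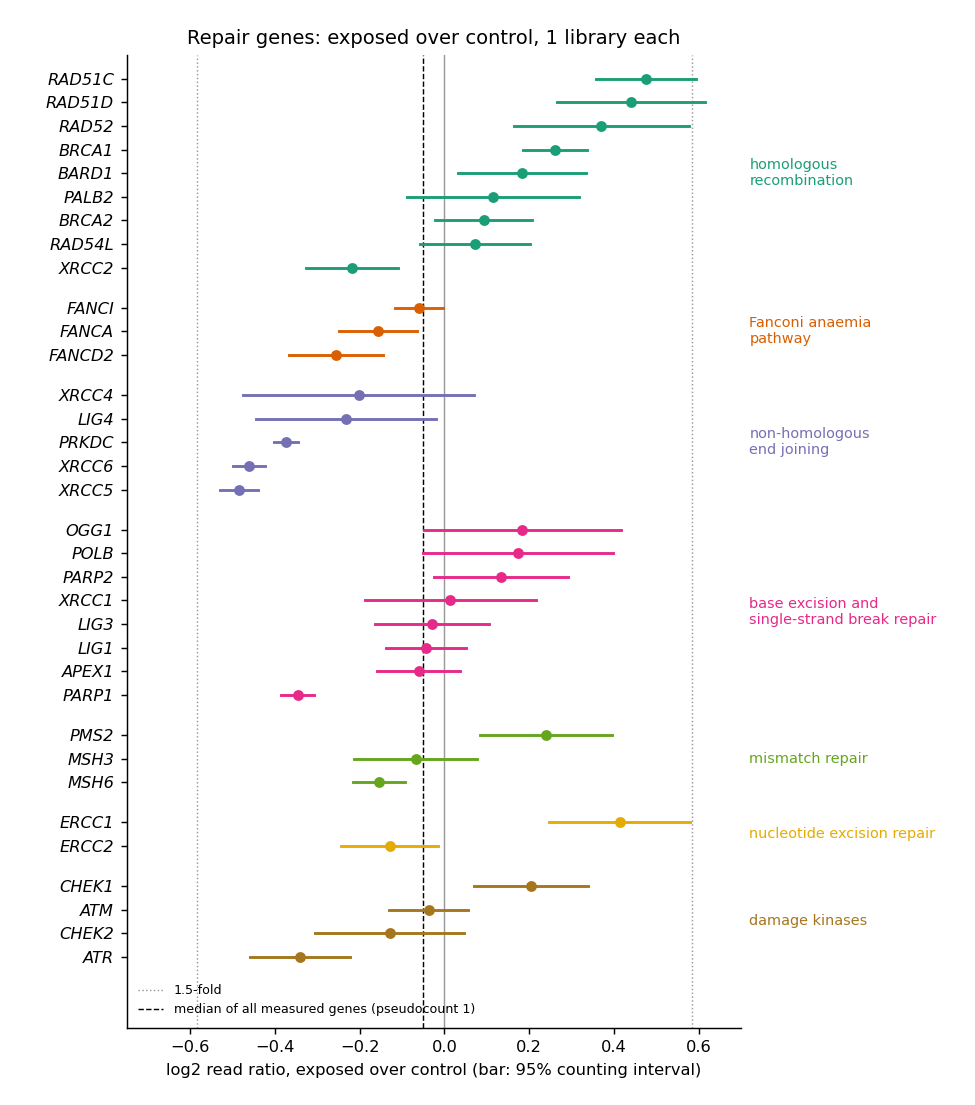
Log2 read ratio of each of the 34 repair genes, exposed over control, with bars for the 95% counting interval, grouped by pathway. The dotted lines mark 1.5-fold and the dashed line the median over every measured gene, -0.05. XRCC5 is lowest at a ratio of 0.715 and RAD51C highest at 1.39.

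Among the mediators of homologous recombination, BRCA1, the ubiquitin ligase subunit that promotes end resection and loading of the recombinase, stood at 21.6 FPKM in the exposed library and 18.0 FPKM in the control library, from 3130 reads against 2651. The ratio was 1.2 (1.14 to 1.26). Its obligate partner BARD1 had 7.95 FPKM in the exposed library and 7.01 FPKM in the control library, a ratio of 1.14 (1.02 to 1.26). Both intervals lay above 1, and the level of BARD1 per BRCA1 was 0.368 in the exposed library and 0.388 in the control library, a quotient of 0.948 (0.843 to 1.07). PALB2, the bridge between BRCA1 and BRCA2, had 5.56 and 5.14 FPKM in exposed and control cells and BRCA2, which loads the recombinase onto DNA, 6.59 and 6.18 FPKM. The intervals of both held 1, at ratios of 1.08 (0.94 to 1.25) for PALB2 and 1.07 (0.985 to 1.15) for BRCA2.

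The paralogues that stabilise the recombinase filament went different ways. RAD51C, a subunit of both paralogue complexes (ENSG00000108384, chromosome 17, 58692573 to 58735611), stood at 14.5 FPKM in the exposed library and 10.5 FPKM in the control library. With 1392 and 1015 reads its ratio of 1.39 (1.28 to 1.51) was the highest of all 34 genes, and 95.2% of measured genes had a log2 ratio at or below its 0.44. RAD51D, which sits with RAD51C in the complex that also holds XRCC2, had 3.53 FPKM in exposed cells and 2.60 FPKM in control cells, a ratio of 1.36 (1.2 to 1.53). XRCC2 itself (ENSG00000196584, chromosome 7, 152644779 to 152676165) was the exception of the pathway, at 16.7 FPKM in the exposed library and 19.4 FPKM in the control library. Its ratio was 0.860 (0.798 to 0.927). Members of 1 complex thus lay at both ends of the pathway. RAD52, an annealing protein, stood at 6.67 FPKM in the exposed and 5.16 FPKM in the control library, a ratio of 1.29 (1.12 to 1.49). The motor protein gene RAD54L had 19.5 FPKM in exposed cells and 18.5 FPKM in control cells, and its interval of 0.961 to 1.15 held 1.

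The promoters of the highest member and of the exception are shown for comparison, as RefSeq gives them on GRCh38.p14, in the direction of the gene, from 250 bases before the start to 50 bases after. They were searched on both strands for E2F letters (TTTGGCGC, TTTCGCGC, TTTCCCGC or TTTGCCGC), for CHR letters (TTTGAA or TTCGAA) and for CCAAT, and every match is in capitals. The E2F, CHR and CCAAT boxes are elements through which many S and G2 phase genes are controlled. No searched motif overlapped another in these windows. RAD51C lies at chr17:58692323-58692622 on the plus strand and held no match. XRCC2 lies at chr7:152676092-152676391 on the minus strand and held TTTCCCGC on the opposite strand, 21 bases after the start.
RAD51C: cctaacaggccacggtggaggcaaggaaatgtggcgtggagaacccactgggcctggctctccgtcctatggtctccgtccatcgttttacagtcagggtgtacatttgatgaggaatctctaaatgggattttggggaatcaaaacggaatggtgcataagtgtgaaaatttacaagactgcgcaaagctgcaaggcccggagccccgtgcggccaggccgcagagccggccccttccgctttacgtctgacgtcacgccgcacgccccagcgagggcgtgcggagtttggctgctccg
XRCC2: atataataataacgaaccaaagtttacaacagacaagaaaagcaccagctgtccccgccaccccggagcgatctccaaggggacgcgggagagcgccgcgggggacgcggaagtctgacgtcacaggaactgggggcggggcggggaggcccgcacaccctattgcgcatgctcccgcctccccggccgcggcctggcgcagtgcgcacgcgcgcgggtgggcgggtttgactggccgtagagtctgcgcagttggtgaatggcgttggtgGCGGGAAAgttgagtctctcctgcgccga

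In the Fanconi pathway FANCD2 and FANCI form the clamp that is placed on cross-linked DNA, and FANCA belongs to the core complex that marks it with ubiquitin. FANCD2 (ENSG00000144554, chromosome 3, 10026414 to 10101930) had 9.08 FPKM in the exposed library and 10.8 FPKM in the control library, a ratio of 0.837 (0.775 to 0.904). FANCA had 11.8 FPKM in exposed cells and 13.1 FPKM in control cells, a ratio of 0.897 (0.841 to 0.956). FANCI (ENSG00000140525, chromosome 15, 89243949 to 89317261) was the most abundant of the 3, at 39.8 FPKM in exposed and 41.5 FPKM in control cells. Its ratio of 0.959 (0.922 to 0.998) lay so near 1 that its sign changed with scaling. The clamp partners therefore differed by unequal amounts, with 4.39 FPKM of FANCI per FPKM of FANCD2 in the exposed library and 3.83 in the control library, a quotient of 1.15 (1.05 to 1.25). The promoters of FANCA and FANCD2 are printed because both genes kept their direction under every scaling tried and both promoters hold E2F letters, FANCA at chr16:89816598-89816897 on the minus strand and FANCD2 at chr3:10026187-10026486 on the plus strand. Outside this pathway PMS2 met the same conditions with a log2 ratio above 0, and its promoter is not printed. FANCA held TTTGCCGC on the opposite strand 172 bases before the start and CCAAT 33 bases before it, and FANCD2 held TTTCCCGC on the opposite strand from 2 bases before the start.
FANCA: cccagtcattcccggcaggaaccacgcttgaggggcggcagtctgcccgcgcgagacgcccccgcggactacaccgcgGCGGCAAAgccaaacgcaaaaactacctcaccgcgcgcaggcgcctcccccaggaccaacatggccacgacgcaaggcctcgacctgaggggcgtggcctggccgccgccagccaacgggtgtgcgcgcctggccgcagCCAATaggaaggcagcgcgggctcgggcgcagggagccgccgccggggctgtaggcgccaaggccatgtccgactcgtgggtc
FANCD2: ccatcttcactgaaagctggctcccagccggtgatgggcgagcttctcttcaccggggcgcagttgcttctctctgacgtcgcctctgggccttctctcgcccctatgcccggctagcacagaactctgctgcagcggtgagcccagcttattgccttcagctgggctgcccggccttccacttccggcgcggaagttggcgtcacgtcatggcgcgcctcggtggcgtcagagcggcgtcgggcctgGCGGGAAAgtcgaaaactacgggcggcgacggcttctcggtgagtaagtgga

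End joining had the lowest median of the pathways among the 34 listed genes, while 8 further end joining genes, taken up below, had a median of -0.01. XRCC5 and XRCC6 encode Ku80 and Ku70, the ring that threads onto broken ends, and PRKDC encodes DNA-PKcs, the kinase that Ku recruits. XRCC5 (ENSG00000079246, chromosome 2, 216107464 to 216206303) stood at 81.6 FPKM in the exposed library and 114 FPKM in the control library. It had 7029 and 9976 reads in these libraries, a ratio of 0.715 (0.693 to 0.737), the lowest of the 34 genes. Only 4.72% of measured genes had a log2 ratio at or below its -0.48. XRCC6 had 186 FPKM in exposed cells and 257 FPKM in control cells, a ratio of 0.727 (0.708 to 0.746). PRKDC stood at 72.9 FPKM in the exposed and 94.5 FPKM in the control library, a ratio of 0.771 (0.756 to 0.787). The proportion of the Ku genes differed by less than counting error, with 2.29 FPKM of XRCC6 per FPKM of XRCC5 in the exposed library and 2.25 in the control library, a quotient of 1.02 (0.977 to 1.06).

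The ligation pair was far less abundant than Ku. Its ratios lay nearer 1, but their wide intervals overlapped those of XRCC5 and XRCC6, so a smaller difference than for Ku is not settled. XRCC4, the scaffold of the ligase (ENSG00000152422, chromosome 5, 83077498 to 83353787), had 4.95 FPKM in exposed cells and 5.70 FPKM in control cells, a ratio of 0.869 (0.719 to 1.05). LIG4, the ligase that seals the joined ends, had 4.90 FPKM in the exposed and 5.76 FPKM in the control library, a ratio of 0.851 (0.735 to 0.986). The interval of XRCC4 held 1 and that of LIG4 did not, and their level per gene length was nearly equal, 0.989 of LIG4 per XRCC4 in the exposed and 1.01 in the control library. Summed over the pathway's 5 genes, the level was 351 FPKM in the exposed library and 477 FPKM in the control library. The promoter of XRCC6 is shown because it alone held E2F letters among the end joining genes whose promoter was searched. XRCC5 and PRKDC had no RefSeq promoter available here and were not searched. The XRCC6 promoter lies at chr22:41621045-41621344 on the plus strand, with its start 176 bases from the deposited one. It held CCAAT on the opposite strand 26 bases before the start and TTTGGCGC on the opposite strand 42 bases after it.
XRCC6: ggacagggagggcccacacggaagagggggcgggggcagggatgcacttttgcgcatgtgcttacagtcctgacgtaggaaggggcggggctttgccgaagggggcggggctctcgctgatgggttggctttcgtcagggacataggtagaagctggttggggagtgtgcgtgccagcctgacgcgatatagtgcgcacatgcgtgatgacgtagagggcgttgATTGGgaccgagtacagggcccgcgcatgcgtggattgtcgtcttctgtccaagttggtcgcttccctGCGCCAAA

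**Figure D2:**
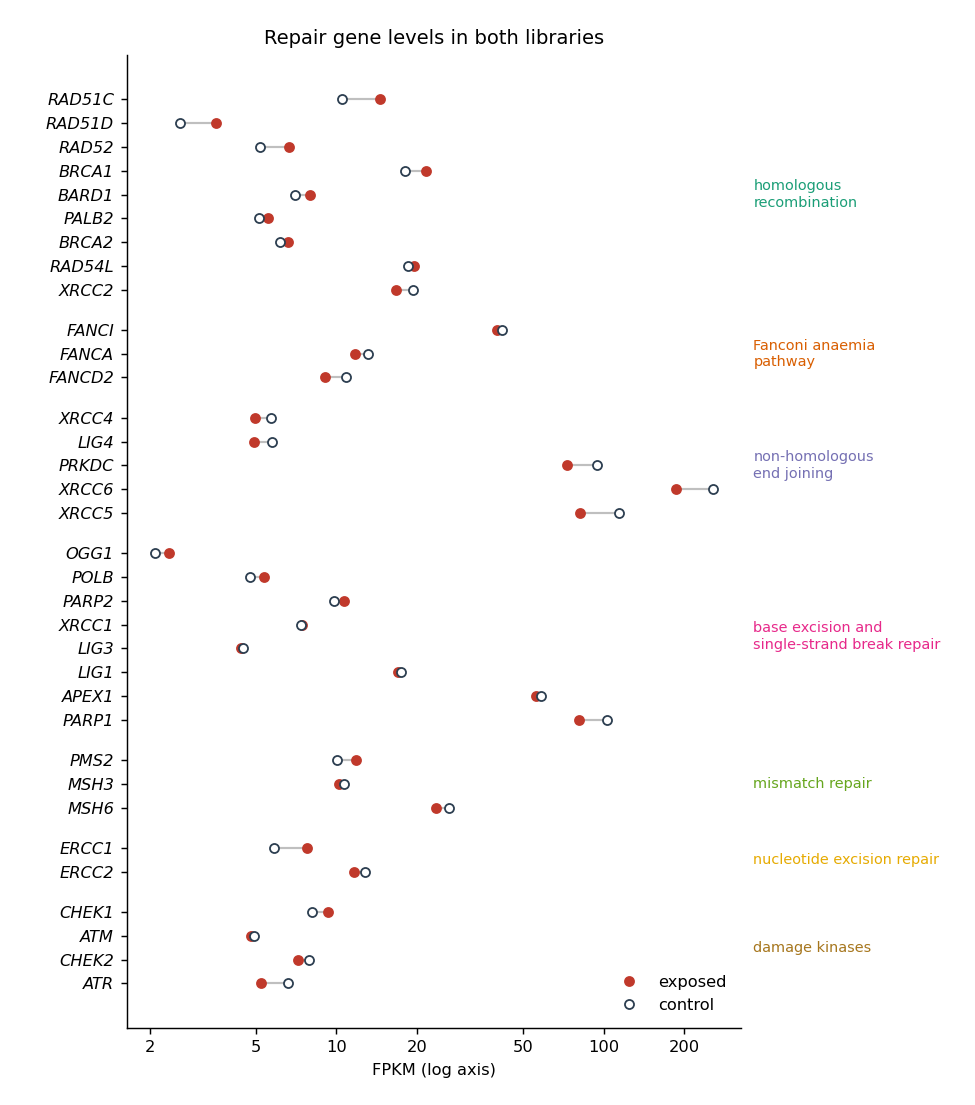
FPKM of each repair gene on a log axis, with filled points for the exposed library and open points for the control library. XRCC6, at 186 and 257 FPKM, is the most abundant gene and OGG1, at 2.37 and 2.09 FPKM, the least.

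Among the 8 listed genes of single-strand break and base excision repair, 1 had an interval that left out 1. PARP1, the abundant sensor that marks nicks with poly(ADP-ribose) (ENSG00000143799, chromosome 1, 226360691 to 226408079), stood at 80.7 FPKM in the exposed library and 103 FPKM in the control library, a ratio of 0.786 (0.765 to 0.808). Its relative PARP2 had 10.7 FPKM in exposed and 9.77 FPKM in control cells, a ratio of 1.10 (0.984 to 1.22). PARP2 per PARP1 was 0.133 in the exposed library and 0.0951 in the control library, a quotient of 1.39 (1.25 to 1.56), the largest shift among the 7 partner pairs compared.

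The other 6 listed genes of the route had intervals that held 1. POLB, the gap-filling polymerase (ENSG00000070501, chromosome 8, 42338454 to 42371808), had 5.37 FPKM in exposed cells and 4.77 FPKM in control cells, a ratio of 1.13 (0.965 to 1.32). OGG1, the glycosylase that removes oxidised guanine and the least abundant of the 34 genes, had 2.37 FPKM in the exposed and 2.09 FPKM in the control library, with 327 and 292 reads and a ratio of 1.14 (0.967 to 1.33). APEX1, the endonuclease that cuts at the abasic site, stood at 55.8 and 58.2 FPKM in exposed and control cells. The scaffold gene XRCC1 stood at 7.46 and 7.39 FPKM and its ligase partner LIG3 at 4.40 and 4.49 FPKM in the same order. LIG1, which also joins replication fragments, had 17.0 FPKM in the exposed and 17.5 FPKM in the control library. The intervals of their read ratios were 0.896 to 1.03 for APEX1, 0.878 to 1.16 for XRCC1, 0.893 to 1.07 for LIG3 and 0.909 to 1.04 for LIG1. No difference was thus detectable at this depth on the deposited scaling. LIG3 per XRCC1 was 0.589 in the exposed and 0.608 in the control library, a quotient of 0.97 (0.820 to 1.15).

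Mismatch repair had 3 members on the list. MSH6, which recognises base mismatches and small loops (ENSG00000116062, chromosome 2, 47695530 to 47810101), had 23.7 FPKM in exposed cells and 26.3 FPKM in control cells, a ratio of 0.899 (0.862 to 0.938). MSH3, which recognises larger loops, stood at 10.2 FPKM in the exposed and 10.7 FPKM in the control library, with an interval of 0.863 to 1.05. The proportion of the 2 alternative partners differed by less than counting error, with 2.32 FPKM of MSH6 per FPKM of MSH3 in the exposed and 2.46 in the control library, a quotient of 0.942 (0.845 to 1.05). PMS2, the endonuclease subunit (ENSG00000122512, chromosome 7, 5973239 to 6009125), had 11.8 FPKM in exposed cells and 10.0 FPKM in control cells, a ratio of 1.18 (1.06 to 1.31). PMS2 is uncertain because it has near-identical copies: 8 of 11 pseudogenes named for it held reads, 554 in the exposed and 431 in the control library, a ratio of 1.30 (1.15 to 1.48). Counted with the gene, that made 1288 reads in exposed and 1062 in control cells, or 1.23 (1.13 to 1.34).

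Of the nucleotide excision genes, ERCC1, a subunit of the nuclease that cuts on the 5′ side of a lesion (ENSG00000012061, chromosome 19, 45407333 to 45478828), stood at 7.78 FPKM in the exposed library and 5.84 FPKM in the control library. Its ratio of 1.33 (1.19 to 1.5) was the third highest read ratio of the 34 genes. ERCC1 shares 28.6% of its exonic bases with CD3EAP on the opposite strand, and CD3EAP had 118 reads in exposed and 172 in control cells, the opposite direction. ERCC2, the XPD helicase of the repair and transcription factor TFIIH (ENSG00000104884, chromosome 19, 45349837 to 45370918), had 11.7 FPKM in exposed cells and 12.8 FPKM in control cells, a ratio of 0.914 (0.845 to 0.990).

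The damage kinases also divided. ATR, which answers to bare single-stranded DNA (ENSG00000175054, chromosome 3, 142449235 to 142578826), had 5.22 FPKM in the exposed library and 6.61 FPKM in the control library. From 1029 reads against 1322 the ratio was 0.790 (0.727 to 0.857). CHEK1, the kinase that ATR activates (ENSG00000149554, chromosome 11, 125625136 to 125676255), lay on the other side, at 9.34 FPKM in exposed and 8.11 FPKM in control cells, a ratio of 1.15 (1.05 to 1.26). ATM, which answers to breaks through both strands, stood at 4.77 and 4.90 FPKM, and its target CHEK2 at 7.21 and 7.89 FPKM, in exposed and control cells. The intervals of ATM, 0.913 to 1.04, and of CHEK2, 0.810 to 1.03, held 1. Kinase and target thus had values on opposite sides of 1 for ATR and CHEK1.

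The 4 most abundant repair genes were those with the lowest values at high precision. XRCC6, XRCC5, PARP1 and PRKDC, singled out after their values were seen, summed to 422 FPKM in the exposed library and 568 FPKM in the control library, a quotient of 0.743. The other 30 genes summed to 368 FPKM in exposed and 367 FPKM in control cells, a quotient of 1.0. Abundant genes were lower in general: the median log2 ratio was -0.17 for the 594 measured genes with a mean of 50 to 300 FPKM, against 0.00 for the 3963 genes with a mean of 1 to 5 FPKM. Among the 415 genes with a mean of 50 to 100 FPKM, 7.23% had a log2 ratio at or below that of XRCC5, 16.9% at or below that of PRKDC and 21.2% at or below that of PARP1. Among the 179 genes at 100 to 300 FPKM, 12.8% lay at or below XRCC6. APEX1, the fifth gene at that level, lay above its band's median, with 66.7% of the band at or below it. The part of level in the values of Ku, DNA-PKcs and PARP1 was not tested.

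**Figure D3:**
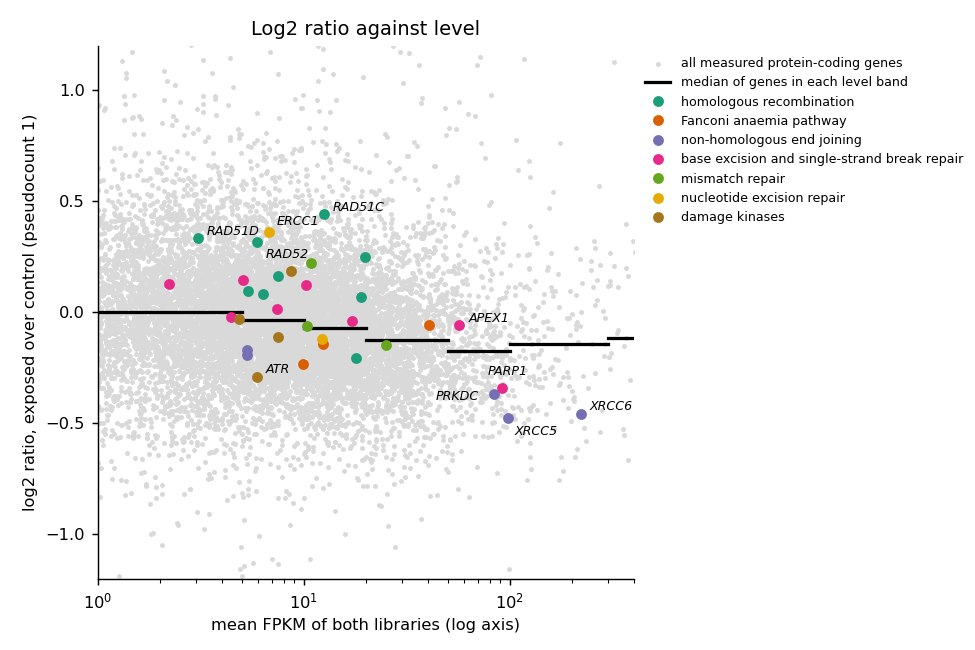
Log2 ratio, exposed over control with a pseudocount of 1, against mean FPKM on a log axis. Grey points are all measured genes (82 lie outside the axes), coloured points are repair genes, and black lines are medians of all measured genes in bands of level, which run from 0.00 at 1 to 5 FPKM to -0.17 at 50 to 100 FPKM. XRCC5, XRCC6, PRKDC and PARP1 lie below the medians of their bands.

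Further recombination and end joining genes had medians closer to the overall one than the 9 and 5 genes above. On the deposited scaling the further recombination genes lay mostly below 0, unlike the 9. Of 112 other repair genes, 105 were measured, and their median log2 ratio of -0.05 equalled that of all measured genes to 2 decimals. By the 1.5-fold rule on the log2 ratio 2 were higher (1.90%) and 0 lower, against 2.53% and 2.16% of all measured genes. On the deposited scaling, among 26 further recombination genes 7 lay above 0 and 19 below, with a median of -0.08, and together with the 9 genes above the median of all 35 was -0.08. Of these 35, 15 lay above 0 and 20 below. Against the median of all measured genes, 9 of the 26 lay above and 17 below. Among 8 further end joining genes 4 lay on each side of 0, with a median of -0.01, and together with the 5 genes above the median of all 13 was -0.17, with 9 below 0. Of 16 further base excision and single-strand break genes 5 lay above 0 and 11 below, with a median of -0.16. Together with the 8 listed ones the median of all 24 was -0.05. The wider lists held values in both directions. Of values picked out after they were seen, in recombination EME1, a nuclease subunit, stood at 0.26 and XRCC3, a paralogue of the recombinase, at 0.26. In end joining MAD2L2 stood at -0.31 and RIF1 at -0.22, both factors that protect ends from resection and both lower than XRCC4 and LIG4. Those lists were assembled with earlier results of these data known.

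XPC and ALKBH2, the 2 other repair genes past 1.5-fold in log2 ratio, act on damage other than breaks. XPC, the damage sensor of nucleotide excision repair, stood at 10.3 FPKM in the exposed library and 6.02 FPKM in the control library, a ratio of 1.71 (1.52 to 1.92). ALKBH2, which reverses alkylation directly, had 8.92 FPKM in exposed and 5.60 FPKM in control cells, a ratio of 1.59 (1.33 to 1.91). MUTYH, a glycosylase that removes adenine paired with oxidised guanine, followed at a read ratio of 1.51 (1.27 to 1.79) and a log2 ratio of 0.49, under the threshold. The lowest by log2 ratio, given here by read ratio, were TDG, a glycosylase for thymine in mismatches, at 0.70 (0.658 to 0.745), CLSPN, the adaptor between ATR and CHEK1, at 0.702 (0.642 to 0.767), and CETN2, a partner of XPC, at 0.710 (0.624 to 0.806). By read ratio 2 genes of low level, picked out after their values were seen, were lower still, NEIL2, a glycosylase for oxidised bases, at 0.626 (0.453 to 0.858) and RAD54B, a motor protein of recombination, at 0.648 (0.491 to 0.849). CLSPN and ATR were therefore both lower while CHEK1 was higher.

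Lists of cell cycle and p53 genes are given beside these values because several recombination genes are expressed with replication and several repair genes are p53 targets. All 26 measured G2/M genes lay below 0 with a median of -0.52, 10 of them at least 1.5-fold lower, from KIF20A at -0.96, DLGAP5 at -0.87 and ANLN at -0.83 to CDK1 at -0.33, UBE2C at -0.32 and AURKB at -0.29. Their summed level was 896 FPKM in the exposed and 1293 FPKM in the control library. Of 33 S phase genes 25 lay below 0 on the deposited scaling and 0 were past 1.5-fold, with a median of -0.16, from RRM2 at -0.56 and RRM1 at -0.43 to POLA2 at 0.12, TYMS at 0.16 and CDT1 at 0.37. Below the median of all measured genes, -0.05, lay 26 G2/M and 25 S phase genes. The 10 repair genes best known to peak with replication (BRCA1, BRCA2, BARD1, RAD54L, FANCA, FANCD2, FANCI, LIG1, MSH6 and CHEK1) had a median of 0.01, with 5 on each side of 0 on the deposited scaling and, with equal sums, 7 above and 3 below. They ran from FANCD2 at -0.23 to BRCA1 at 0.25, inside the range of the S phase list. The part of the cell cycle in these values was not tested. Of 6 p53-induced genes with roles in repair 5 lay above 0, with a median of 0.26. These were GADD45A at 1.31, XPC at 0.68, the translesion polymerase gene POLH at 0.32, the ribonucleotide reductase gene RRM2B at 0.21 and DDB2, the sensor of ultraviolet lesions, at 0.17, while the sliding clamp gene PCNA stood at -0.14. The part of p53 in these values was not tested.

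**Figure D4:**
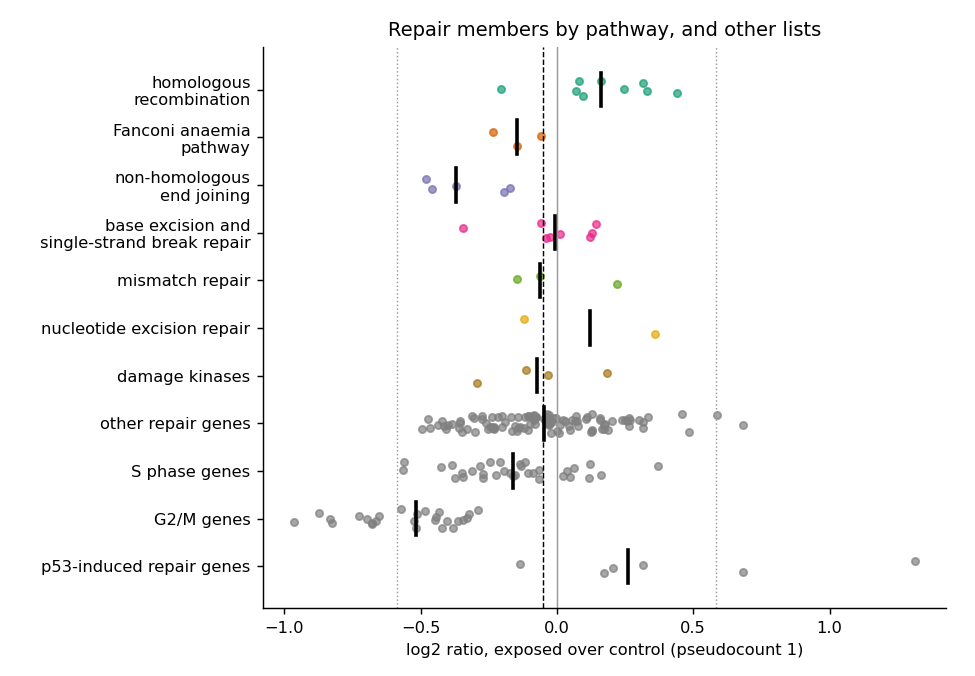
Log2 ratio, exposed over control with a pseudocount of 1, of each of the 34 repair genes by pathway and of each measured gene of 4 further lists, with a black bar at each median. The dashed line is the median of all measured genes and the dotted lines are 1.5-fold. The medians run from -0.52 for the G2/M list and -0.37 for the listed end joining genes to 0.16 for the listed recombination genes and 0.26 for the p53-induced list.

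Many of the repair genes share a start region with a neighbour on the opposite strand. For 17 of the 34 (50%), the annotated start lay within 1000 bases of that of a protein-coding gene running the other way, against 18.1% of all measured genes. On the deposited scaling, of the 14 neighbours that were measured, 2 lay above 0 together with the repair gene, 7 below 0 together with it, and 5 on the other side. These counts have no share over all measured pairs beside them, so they do not show whether paired genes go together. Among these repair genes LIG1, APEX1, MSH3 and ATM changed sign with scaling. The neighbours named here were chosen after their values were seen. PRKDC starts 2 bases from MCM4, a subunit of the replicative helicase, and both were lower, with 59.6 FPKM of MCM4 in exposed and 74.1 FPKM in control cells, a ratio of 0.804 (0.778 to 0.831). ATM starts 158 bases from NPAT, the activator of histone genes, whose ratio was 0.751 (0.677 to 0.832) against 0.974 for ATM. RAD51C and TEX14 went opposite ways, TEX14 standing at 0.774 FPKM in exposed and 1.44 FPKM in control cells. In these picked pairs, values were similar for PRKDC and MCM4 but not for ATM and NPAT or for RAD51C and TEX14. For BRCA1 the start used is that of its outermost annotated transcript, beside NBR1.

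**Figure D5:**
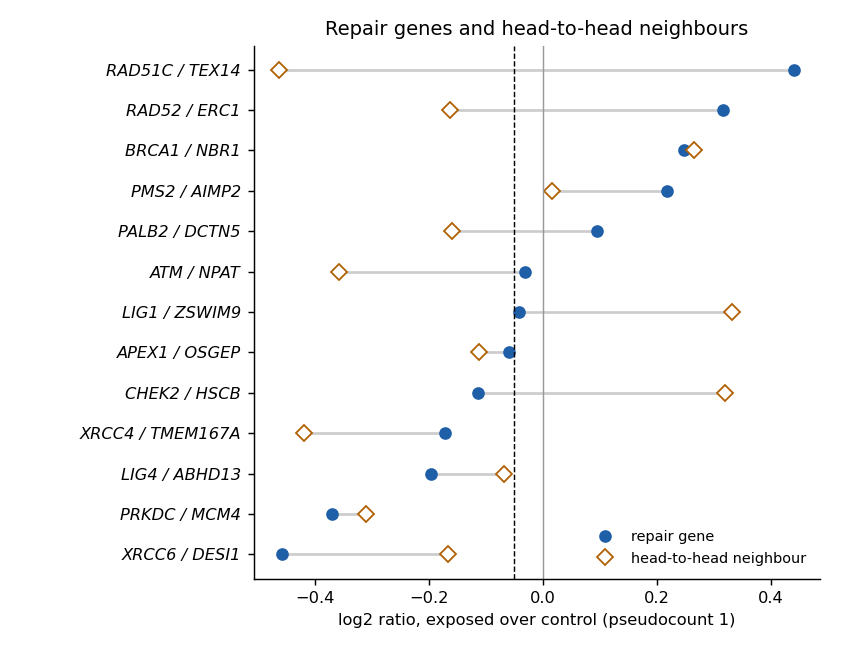
Log2 ratio, exposed over control with a pseudocount of 1, of 13 of these repair genes (filled circles) and of the measured protein-coding gene that starts within 1000 bases on the opposite strand (open diamonds). The widest gaps are RAD51C with TEX14 and RAD52 with ERC1, and the pairs BRCA1 with NBR1 and PRKDC with MCM4 lie close together.

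Of the 34 genes, 25 had a RefSeq promoter within 1000 bases of the deposited start. The other genes, among them XRCC5, PRKDC, FANCI and POLB, were not searched, so whether they hold these letters is not known here. E2F letters stood in 7 of these (28.0%), namely FANCA, FANCD2, LIG1, MSH3, PMS2, XRCC2 and XRCC6, against 5.84% of the 8010 measured genes with such a promoter. CCAAT stood in 11 of 25 (44.0%) against 37.5%, and CHR letters in 2 of 25 (8%) against 10.5%. The 7 genes with E2F letters had a median log2 ratio of -0.15 and 6 of them lay below 0, while the 18 without had a median of 0.02 with 9 below 0. PMS2, at 0.22, was the gene with E2F letters above 0. LIG1 and MSH3 are among the 6 below 0, and with equal sums 4 of the 7 and 6 of the 18 lay below 0. Over all measured genes with such a promoter the medians were -0.05 both for the 468 with E2F letters and for the 7542 without. Below 0 on the deposited scaling lay 272 of the 468 and 4436 of the 7542. A match is a description of these letters and not evidence of binding. The sequences printed above show the matches for XRCC2, FANCA, FANCD2 and XRCC6, which all lay below 0 on every scaling. Those of PMS2, LIG1 and MSH3 are not printed, so the printed promoters do not represent all genes with E2F letters.

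Overlapping annotation limits some values, since the table states no strand. Of the 34 genes 22 share exonic bases with another gene and 12 share none, among them RAD51C, XRCC2, XRCC5, XRCC6, PRKDC, PARP1 and POLB. At least 20% is shared by 6 genes: LIG3 (30.5%), OGG1 (29%), ERCC1 (28.6%), RAD54L (25.1%), XRCC1 (24.0%) and FANCA (23.6%). For RAD54L the opposite-strand neighbour LRRC41 held more reads than the gene itself, 3206 in exposed and 3199 in control cells against 986 and 951, so part of the value of RAD54L could belong to LRRC41. The same limit applies to OGG1, which shares bases with TADA3 and CAMK1 on the opposite strand. TADA3 held 939 reads in exposed and 946 in control cells, against 327 and 292 for OGG1. RAD51D shares 9.45% of its exonic bases with other genes, among them the readthrough gene RAD51L3-RFFL.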

How the data were processed

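RNA was measured in 1 exposed and 1 control library. A Qiagen RNeasy column kit and a SMARTer mRNA library kit were used, per the labels' protocols. The authors deposited 1 FPKM value per gene and library and the gene length in bases. How reads were aligned and counted is not given in the sources used here. Mouse builds, GRCm38 and mm10, stand in the submitters' processing notes, but all 58735 gene identifiers are human and in GENCODE 29 (GRCh38), and the deposited length equalled the merged exon length for all 34 repair genes. FPKM times length was a whole multiple of 1 step per library (tolerance 0.001 reads) for 100% of values above 0, which gave the whole reads.

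The log2 ratio was taken at a pseudocount of 1 over protein-coding genes averaging 1 FPKM or above. Genes were counted by size (1.5-fold, also 2-fold and, added later, 1.2-fold) and by whether the exact 95% Clopper-Pearson counting interval of the read ratio left out 1. Quotients of partner levels carry an exact conditional interval of the odds ratio. With 1 library per group no test was run. Promoters came from RefSeq. For all 34 genes, values are given; with full coordinates, the highest and lowest of each pathway; from other lists, up to 3 highest and 3 lowest and the markers, while neighbours and overlapping genes were named after their values were seen. The members and lists were chosen with earlier results of these data known. Some genes of the lists are not reported here. The functions were tested on simulated data. Python 3.11.15, numpy 2.4.6, pandas 2.3.3 and scipy 1.17.1 were used.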

Additional observations from a re-analysis of the deposited data

How the results depend on the processing

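The count of repair genes at least 1.5-fold apart stayed at 0 in each direction with pseudocounts of 0.1 and 5, 5 other scalings, a 2-fold threshold, all genes with reads kept, or only genes averaging 5 FPKM or above. At 1.2-fold, chosen after seeing the data, it was 4 higher and 5 lower. The median log2 ratio of the end joining genes was -0.37 on the deposited scaling. It was -0.25 with FPKM scaled to equal sums, -0.31 with equal 75th percentiles, -0.31 with the trimmed mean of log ratios set to 0, -0.30 with library sizes that leave out mitochondrially encoded genes and the top 100 by level, and -0.29 with scaling to total reads, which was chosen after seeing the data. The Fanconi median was -0.031 with FPKM scaled to equal sums, against -0.15. These shifts follow from the scaling itself, since equal sums moved the median of all measured genes by 0.11. The other 86 of 94 counts and medians, and 202 of 238 values of single genes, moved by no more than 1.5 times for a count or the median or own counting error for a log2 ratio. Scaling changed the sign of FANCI, LIG1, LIG3, APEX1, MSH3 and ATM. The counting intervals were taken on the deposited scaling only. No paired analysis was possible because there is 1 library per group. Depth limits genes such as XRCC4, with 209 reads in the exposed and 244 in the control library.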

Other observations

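Repair genes had a median span of 52900 bases, against 33284 bases for all measured genes. Their promoters had a median of 64.3% GC and 28 CpG, against 66.0% and 27 for all measured genes. Among 9 measured genes of translesion synthesis and direct reversal, 5 lay above 0 and 4 below on the deposited scaling, with a median log2 ratio of 0.03, and 3 of them were at least 1.2-fold higher, against 12.0% of all measured genes. Their summed level was 81.7 FPKM in the exposed library and 72.6 FPKM in the control library.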
